A study of Homo sapiens with 15 samples.

Results

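The genes of DNA methylation and demethylation formed a set of 9: DNMT1, DNMT3A, DNMT3B, UHRF1, TET1, TET2, TET3, MBD2 and TDG. They were chosen by symbol among the 60649 genes of the count table, and all 9 were among the 23711 genes with enough counts to be tested. Messenger RNA was sequenced from K-562 cells, an established human line of chronic myeloid leukemia, after exposure to martinostat, an inhibitor of histone deacetylases. There were 5 groups with 3 libraries each: untreated cells and cells kept for 24 h with martinostat at 0.15 µM, 0.25 µM, 0.5 µM or 1 µM. The labels call the controls untreated and mention no solvent, so an action of a solvent and one of martinostat cannot be told apart. All cells were of a single line, and the labels number biological replicates without saying how the cultures were separated, so each test measures the spread between these libraries.

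In mammalian cells a methyl group is placed on cytosine, mostly where a guanine follows. DNMT3A and DNMT3B set the mark on unmethylated DNA, and DNMT1, brought to newly copied DNA by UHRF1, restores it after replication. The TET enzymes oxidize the methyl group, TDG cuts out the oxidized bases so that repair can put back a plain cytosine, and MBD2 reads methylated DNA as part of the NuRD complex, which also holds histone deacetylases. TET2 and DNMT3A are well known as genes mutated in myeloid malignancies.

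The sequence just upstream of the transcription starts was read from the RefSeq promoter table (GRCh38.p14), in which all 9 genes were found with 20 windows in all. In these windows of 250 bases both strands were searched for an E2F spelling (TTTCCCGC, TTTCGCGC, TTTGCCGC or TTTGGCGC), for CCAAT, for GGGCGG (GC box) and for TATAAA. UHRF1 was the single member with an E2F spelling, in 2 of its 3 windows, at positions -14 and -160 from the starts, and 2.79% of the 35116 promoters in the table held one. CCAAT was present in 5 members (32.0% of all promoters), the GC box in 5 (42.6%) and TATAAA in 1 (10.7%). A member was counted for a match in any of its windows, while the shares, also that for E2F, are of single windows. Counts and shares are therefore unlike measures, and no excess can be read from them. A match is a description of the letters and not a binding site. Windows of UHRF1, DNMT3B, TET3 and MBD2 are shown. UHRF1 holds the E2F spelling and reached the lowest level of the set relative to untreated cells at any dose. The windows of DNMT3B and TET3 held the fewest and nearly the most CG pairs. Capitals mark an E2F spelling or CCAAT, and each line is read 5′ to 3′ on the strand of the gene. They lie at chr19:4909894-4910143 (plus strand) and chr19:4909471-4909500 (plus strand, the last 30 bases before another start) for UHRF1, chr20:32779602-32779851 (plus) for DNMT3B, chr2:73984660-73984909 (plus) for TET3 and chr18:54224670-54224919 (minus) for MBD2.
UHRF1, later start: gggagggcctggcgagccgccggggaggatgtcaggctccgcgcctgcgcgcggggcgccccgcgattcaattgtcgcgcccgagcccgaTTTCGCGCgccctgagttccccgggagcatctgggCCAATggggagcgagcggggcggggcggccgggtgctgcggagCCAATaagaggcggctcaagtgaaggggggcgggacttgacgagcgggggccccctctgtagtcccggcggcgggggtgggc
UHRF1, earlier start: caaatgccgagttttcGCGGGAAAaaaatc
DNMT3B: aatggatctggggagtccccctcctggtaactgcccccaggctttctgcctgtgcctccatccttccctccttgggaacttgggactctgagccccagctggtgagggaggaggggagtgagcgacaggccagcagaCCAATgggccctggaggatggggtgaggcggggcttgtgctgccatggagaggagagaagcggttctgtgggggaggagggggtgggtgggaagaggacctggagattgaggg
TET3: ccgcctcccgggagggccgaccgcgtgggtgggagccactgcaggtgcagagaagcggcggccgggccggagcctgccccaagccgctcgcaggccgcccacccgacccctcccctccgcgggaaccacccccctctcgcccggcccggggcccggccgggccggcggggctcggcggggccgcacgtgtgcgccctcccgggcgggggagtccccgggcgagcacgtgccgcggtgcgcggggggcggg
MBD2: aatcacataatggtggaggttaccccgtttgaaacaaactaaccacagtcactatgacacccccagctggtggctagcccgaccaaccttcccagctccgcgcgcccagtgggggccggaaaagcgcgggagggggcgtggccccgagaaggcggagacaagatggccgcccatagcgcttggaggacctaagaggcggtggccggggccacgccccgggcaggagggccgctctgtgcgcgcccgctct

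Of the 20 windows, 15 held more CG pairs than the median promoter, which held 11. The DNMT3B window had 3 CG pairs and the TET3 window shown 37, and the window of a further UHRF1 start held 41, more than 98.3% of all promoters. All windows of DNMT1, UHRF1 and DNMT3B lie inside the annotated genes, which start at 10231286, 4903080 and 32762385. The sequence just before these annotated gene starts was not read. DNA methylation itself was not measured in these samples.

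Library totals ran from 23755510 to 32805574 counts, and the 9 genes had between 318 counts (TET2) and 11703 counts (DNMT1) in a library. Levels are given as CPM, the count relative to library size, on sizes scaled by TMM (a trimmed mean of log ratios between libraries), whose factors were 0.784 to 0.828 in untreated libraries and 0.950 to 1.284 in treated ones. Replicates 3 at 0.25 and 0.5 µM stood apart from the other 13 libraries on a principal component, and each count of called members was also computed without them. The erythroid markers expected in this line were all detected, and their summed level was 3685 to 4026 CPM in untreated libraries, 1880 to 2050 at 0.15 µM, 1092 to 1435 at 0.25 µM, 622 to 986 at 0.5 µM and 867 to 1001 at 1 µM. Of 14 markers of other lineages, CD8A, MS4A1 and KRT5 had 0 counts in untreated cells, while EPCAM stood at 141 ± 9.54 CPM there and COL1A1 went from 4.36 ± 0.954 to 398 ± 94.4 CPM at 1 µM (SD, n = 3). The T cell list summed to 3.51 to 4.62 CPM untreated and, by rising concentration, to 15.3 to 21.8, 9.96 to 15.7, 2.25 to 3.64 and 1.95 to 4.64 CPM. The B cell list summed to 2.28 to 4.70 and then 5.66 to 8.26, 3.33 to 7.25, 6.12 to 8.39 and 8.27 to 8.98 CPM, and the fibroblast list to 21.9 to 25.4 and then 272 to 363, 268 to 371, 345 to 449 and 301 to 486 CPM. In the same order the epithelial list summed to 130 to 148, 45.2 to 47.8, 31.7 to 34.6, 24.1 to 25.5 and 19.9 to 23.5 CPM, and the hepatocyte list to 15.1 to 16.5, 41.6 to 50.9, 3.76 to 20.4, 1.06 to 1.51 and 1.17 to 1.42 CPM. The T cell and hepatocyte sums were thus highest at 0.15 µM, while the fibroblast sum was high and the epithelial sum low at every dose. Single genes carried the last 2 sums, COL1A1 and EPCAM, and other genes of these lists did not follow. COL1A2 went from 18.9 CPM untreated to 9.70 CPM at 1 µM and DCN was not called, while CDH1 went from 0.0515 to 1.47 CPM. The other 2 sums at 0.15 µM also came mostly from single genes, CD3D with 15.0 CPM and ALB with 44.8 CPM. From untreated cells to 1 µM, ALB went from 15.8 to 0.874 CPM and APOA1 from 0.105 to 0.441 CPM. These sums are therefore no measure of a lineage. The part of these markers in the results that follow was not tested, and in bulk RNA fewer cells of a kind and less RNA per cell cannot be told apart.

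To ask whether martinostat changed the transcripts of the methylation cycle, each dose was compared with untreated cells. A gene was called at an adjusted p under 0.05 in edgeR's quasi-likelihood test, adjusted by Benjamini-Hochberg over all 23711 genes. At 0.15 µM, 5 of the 9 members were lower (DNMT1, DNMT3B, TET3, MBD2 and TDG) and DNMT3A alone was higher, where 19.4% of all genes were called lower and 31.9% higher. At 0.25 µM, 7 members were lower and 0 higher, against 24.8% and 37.4% of all genes. The 8 members other than TET3 were lower at 0.5 µM, where the shares over all genes were 27.6% lower and 39.4% higher, and the same 8 were lower at 1 µM, with shares of 27.5% and 38.8%.

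Well expressed genes as a whole tended downward on this scale, so the members are best read beside them. All members belonged to the 10128 genes averaging 10 CPM or more, of which 40.2%, 48.7%, 48.7% and 48.4% were called lower with increasing dose. The median log2 fold change of those genes was -0.28, -0.40, -0.37 and -0.39, while that of all tested genes was 0.28, 0.32, 0.34 and 0.32. The median of the 9 members was -0.61, -0.84, -1.12 and -0.79 in the same order.

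**Figure D1:**
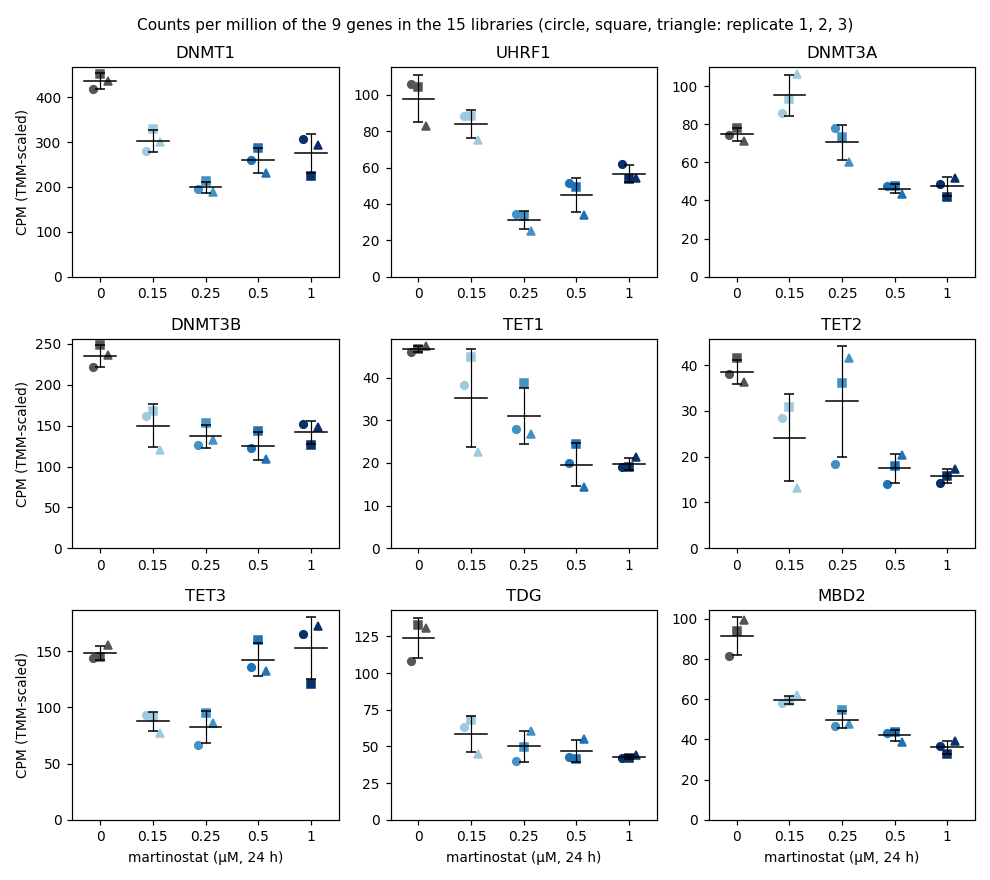
CPM (vertical axes, each starting at 0) of the 9 genes in the 15 libraries, by martinostat concentration (horizontal axes, evenly spaced, with 0 for untreated cells). Points are libraries, lines are means and bars are SDs of 3 libraries. UHRF1 and DNMT1 are lowest at 0.25 µM, TET3 is low at 0.15 and 0.25 µM and has means of 142 to 153 CPM otherwise, and the MBD2 means descend from 91.5 to 36.1 CPM.

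Maintenance of methylation rests on UHRF1, which binds hemimethylated DNA and recruits DNMT1, and both transcripts reached their lowest level at 0.25 µM. UHRF1 stood at 106, 104 and 82.8 CPM in the untreated libraries, at 88.3, 88.2 and 75.2 CPM at 0.15 µM and at 34.4, 33.6 and 25.4 CPM at 0.25 µM. It stood at 51.2, 49.5 and 34.0 CPM at 0.5 µM and at 62.0, 53.9 and 54.1 CPM at 1 µM. The untreated and 0.15 µM libraries overlapped, while each library at the 3 higher doses lay below all of these. UHRF1 was not called at 0.15 µM (log2 fold change -0.22, SE 0.17 and adjusted p 0.286 by edgeR), and it was lower at 0.25 µM by a log2 fold change of -1.65 (SE 0.17 and adjusted p 1.36e-07), a mean of 31.1 against 97.7 CPM. The difference from untreated cells was -1.12 (SE 0.17 and adjusted p 1.05e-05) at 0.5 µM and -0.79 (SE 0.17 and adjusted p 0.000437) at 1 µM in the same test, with 3 of 3 libraries lower each time. All 3 of these calls held under each alternative that was run.

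DNMT1, the maintenance methyltransferase, was measured at 418, 452 and 437 CPM in untreated libraries, at 280, 329 and 299 CPM at 0.15 µM, and at 195, 214 and 189 CPM at 0.25 µM. Its libraries read 260, 288 and 231 CPM at 0.5 µM and 306, 225 and 293 CPM at 1 µM. No treated library reached the untreated range. Against untreated cells the log2 fold change was -0.52 (SE 0.15 and adjusted p 0.00547 by edgeR) at 0.15 µM, -1.13 (SE 0.15 and adjusted p 2.25e-06) at 0.25 µM, -0.75 (SE 0.15 and adjusted p 0.000176) at 0.5 µM and -0.67 (SE 0.15 and adjusted p 0.000534) at 1 µM. The call at 0.15 µM was lost with library totals (-0.16) and with TMM restricted to genes of 10 CPM or more (-0.26).

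Of the de novo methyltransferases, DNMT3A rose at the lowest dose and fell at the highest ones. Its untreated libraries held 74.6, 78.1 and 71.2 CPM, those at 0.15 µM 85.7, 93.1 and 107 CPM, and those at 0.25 µM 78.0, 73.5 and 60.0 CPM. At 0.5 µM it stood at 47.5, 47.4 and 43.4 CPM and at 1 µM at 48.4, 42.0 and 52.0 CPM. Every library at 0.15 µM was above and every library at 0.5 and 1 µM below the untreated range, and those at 0.25 µM overlapped it. The log2 fold change against untreated cells was 0.35 (SE 0.14 and adjusted p 0.0387 by edgeR) at 0.15 µM, -0.08 (SE 0.14 and adjusted p 0.616) at 0.25 µM, -0.70 (SE 0.14 and adjusted p 0.000194) at 0.5 µM and -0.65 (SE 0.14 and adjusted p 0.000363) at 1 µM. The higher call at 0.15 µM was fragile, and 9 of 15 alternatives removed it, among them DESeq2 (0.30, adjusted p 0.0547, in a range of 0.000177 to 0.126 over the alternatives). It was also lost without untreated replicate 1, 2 or 3 (0.35, 0.39 and 0.32) and without replicate 2 or 3 at 0.15 µM (0.37 and 0.26). The lower call at 1 µM was lost with TMM restricted to genes of 10 CPM or more (-0.27).

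DNMT3B, the second de novo enzyme, was lower to a similar extent at every dose. It ran from 221 to 249 CPM in untreated libraries, and with increasing dose from 120 to 168, 126 to 153, 110 to 143 and 126 to 152 CPM. The 12 treated libraries all lay below the 3 untreated ones and overlapped from dose to dose. The log2 fold changes were -0.65 (SE 0.15), -0.78 (SE 0.15), -0.91 (SE 0.15) and -0.73 (SE 0.15), with adjusted p from 3.88e-05 to 0.00159 in the edgeR test. With library totals DNMT3B was no longer called at 0.15 µM (-0.28) and 0.25 µM (-0.26).

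**Figure D2:**
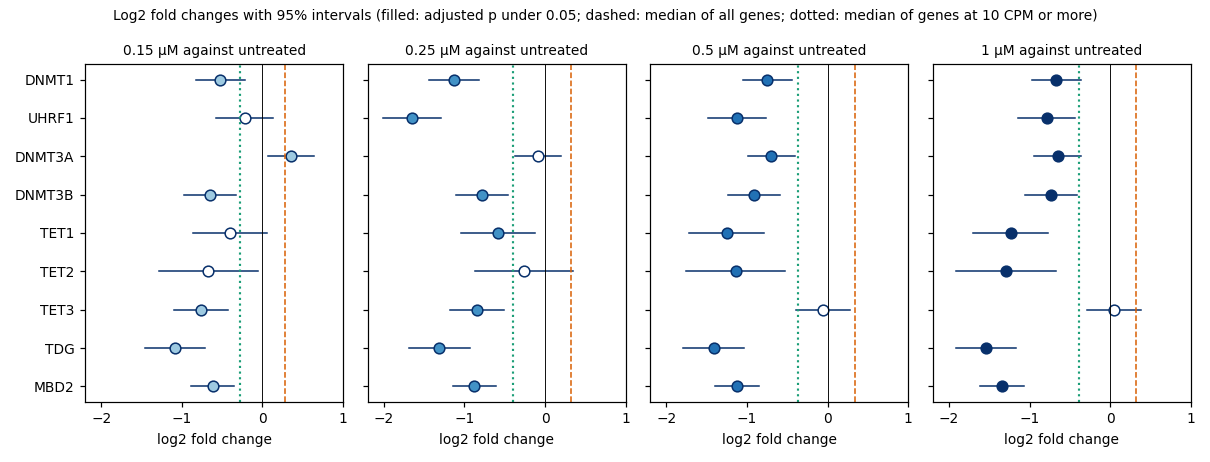
Log2 fold changes against untreated cells (horizontal axes) of the 9 genes at each concentration, as edgeR estimates (points) with 95% intervals (lines). Filled points have an adjusted p under 0.05. The dashed line is the median of all tested genes and the dotted line that of genes averaging 10 CPM or more. DNMT3A lies above 0 at 0.15 µM and TET3 near 0 at 0.5 and 1 µM, and TDG is the lowest member at 1 µM with -1.54.

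The TET dioxygenases, which oxidize 5-methylcytosine, did not move alike. TET3 stood at 144, 145 and 155 CPM in untreated cells, at 93.3, 91.7 and 77.5 CPM at 0.15 µM and at 66.7, 95.1 and 85.7 CPM at 0.25 µM. It was again at 135, 160 and 132 CPM at 0.5 µM and at 165, 121 and 172 CPM at 1 µM. The libraries at the lower doses all lay below the untreated ones, and those at the higher doses lay on both sides of them. TET3 was lower at 0.15 µM (log2 fold change -0.76, SE 0.16 and adjusted p 0.00062 by edgeR) and at 0.25 µM (-0.84, SE 0.16 and adjusted p 0.000163), in 3 of 3 libraries. At 0.5 µM (-0.06, SE 0.16 and adjusted p 0.768) and 1 µM (0.04, SE 0.16 and adjusted p 0.825) it was not called, and the 95% interval at 1 µM was -0.29 to 0.38. With library totals the lower calls were lost at 0.15 µM (-0.40) and 0.25 µM (-0.32) and TET3 was called higher at 1 µM (0.40). With TMM restricted to genes of 10 CPM or more it was called higher at 0.5 µM (0.35) and 1 µM (0.42).

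TET1 ran from 45.9 to 47.4 CPM in untreated libraries, a narrow range, and held 38.3, 44.9 and 22.5 CPM at 0.15 µM and 27.9, 38.6 and 26.7 CPM at 0.25 µM. At 0.5 µM it held 20.0, 24.4 and 14.5 CPM and at 1 µM 19.1, 19.0 and 21.4 CPM. All treated libraries lay below the untreated ones, with the widest spread at 0.15 µM. The log2 fold change was -0.41 (SE 0.22 and adjusted p 0.132 by edgeR) at 0.15 µM, -0.59 (SE 0.22 and adjusted p 0.0265) at 0.25 µM, -1.25 (SE 0.22 and adjusted p 7.04e-05) at 0.5 µM and -1.24 (SE 0.22 and adjusted p 8.04e-05) at 1 µM. The TET1 call at 0.25 µM did not survive 8 of 15 alternatives, with library totals (-0.07) and without untreated replicate 1, 2 or 3 (-0.60, -0.59 and -0.58) or replicate 1 or 3 at 0.25 µM (-0.52 and -0.47) among them. At 0.15 µM TET1 was called without replicate 2 of that dose (-0.61), while without replicate 3 it was -0.17 (adjusted p 0.495, in a range of 0.0417 to 0.909 over the alternatives).

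TET2 had the largest standard errors of the set. It stood at 38.0, 41.5 and 36.3 CPM in untreated cells, at 28.6, 30.8 and 13.2 CPM at 0.15 µM and at 18.4, 36.2 and 41.6 CPM at 0.25 µM. At 0.5 µM the libraries held 14.0, 17.9 and 20.4 CPM and at 1 µM 14.2, 15.7 and 17.4 CPM. Single libraries thus carried the means at the lower doses, where replicate 3 was the lowest at 0.15 µM and replicate 1 the lowest at 0.25 µM. TET2 was not called at 0.15 µM (-0.67, SE 0.29 and adjusted p 0.0621 by edgeR) or 0.25 µM (-0.27, SE 0.29 and adjusted p 0.437), although at 0.15 µM DESeq2 called it (-0.72, adjusted p 0.0311, in a range of 0.00176 to 0.478 over the alternatives) and so did the fit without replicate 2 of that dose (-0.88). Without replicate 3 of that dose the value was -0.38 (adjusted p 0.246). It was lower at 0.5 µM (-1.14, SE 0.29 and adjusted p 0.00254) and at 1 µM (-1.29, SE 0.29 and adjusted p 0.00101), in 3 of 3 libraries. The call at 0.5 µM was lost with library totals (-0.74) and with TMM restricted to genes of 10 CPM or more (-0.72).

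TDG, the glycosylase that cuts out oxidized bases in active demethylation, had the largest fall of the set at 1 µM. Untreated libraries held 109, 133 and 131 CPM, those at 0.15 µM 63.3, 67.7 and 44.6 CPM and those at 0.25 µM 39.8, 49.8 and 60.6 CPM. At 0.5 µM it stood at 43.1, 41.5 and 55.1 CPM and at 1 µM at 41.8, 41.9 and 44.1 CPM. Every treated library was below every untreated one, and the doses overlapped among themselves except 0.15 and 1 µM. The log2 fold change was -1.09 (SE 0.18 and adjusted p 4.97e-05 by edgeR), -1.31 (SE 0.18 and adjusted p 3.95e-06), -1.41 (SE 0.18 and adjusted p 1.21e-06) and -1.54 (SE 0.18 and adjusted p 4.08e-07) from the lowest to the highest dose, and these 4 calls held under all alternatives. The pseudogene TDGP1 had 637 counts over the 15 libraries together, so reads that could belong to either copy leave the TDG value slightly uncertain.

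MBD2, the methyl-CpG reader of NuRD, stood at 81.3, 93.9 and 99.4 CPM in untreated cells, at 58.0, 59.2 and 61.9 CPM at 0.15 µM and at 46.9, 54.8 and 47.7 CPM at 0.25 µM. It stood at 43.3, 43.8 and 38.9 CPM at 0.5 µM and at 36.6, 32.6 and 39.1 CPM at 1 µM. No library of untreated cells or of the 2 lower doses overlapped with a library of a neighbouring dose, while 0.5 and 1 µM overlapped narrowly, but the steps from 0.15 to 0.25 µM (-0.26, adjusted p 0.201 by edgeR) and from 0.25 to 0.5 µM (-0.25, adjusted p 0.161) were not called. The log2 fold change against untreated cells was -0.62 (SE 0.13 and adjusted p 0.000523 by edgeR), -0.88 (SE 0.13 and adjusted p 8.93e-06), -1.12 (SE 0.13 and adjusted p 3.32e-07) and -1.34 (SE 0.13 and adjusted p 3.21e-08) with increasing dose. With library totals the call at 0.15 µM was lost (-0.25).

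Doses were then compared with each other to ask where the members changed. Between 0.15 and 0.25 µM, 3 members were lower and 0 higher, against 7.32% and 4.96% of all genes. Of the genes averaging 10 CPM or more, 15.2% were called lower and 4.6% higher. UHRF1 dropped by a log2 fold change of -1.43 (SE 0.17 and adjusted p 5.47e-05 by edgeR), DNMT1 by -0.60 (SE 0.15 and adjusted p 0.0109) and DNMT3A by -0.43 (SE 0.14 and adjusted p 0.044), each in 3 of 3 libraries. The UHRF1 call held under all alternatives. The DNMT1 call was lost without replicate 2 at 0.15 µM (-0.55). That of DNMT3A was lost in 14 of 15, among them the fits without replicate 1, 2 or 3 at 0.15 µM (-0.51, -0.45 and -0.30) and without replicate 2 or 3 at 0.25 µM (-0.47 and -0.31).

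Between 0.25 and 0.5 µM, UHRF1 and TET3 were higher and DNMT3A, TET1 and TET2 were lower, against 14.4% of all genes called higher and 16.0% called lower. Of the genes averaging 10 CPM or more, 20.5% were called higher and 21.9% lower. TET3 rose by a log2 fold change of 0.79 (SE 0.16 and adjusted p 0.000928 by edgeR) and DNMT3A fell by 0.61 on the log2 scale (SE 0.14 and adjusted p 0.00196), with no overlap of libraries. UHRF1 rose by 0.53 (SE 0.17 and adjusted p 0.023), with 1 of the 3 libraries at 0.5 µM within the range at 0.25 µM. DNMT1 was not called (0.38, SE 0.15 and adjusted p 0.0548 by edgeR), although its libraries did not overlap and DESeq2 called it (adjusted p 0.0125, in a range of 0.00439 to 0.206 over the alternatives). Same-numbered libraries of these 2 doses deviated together from their group means, with correlations of 0.235, 0.236 and 0.542 over genes. The numbers were therefore also read as pairs here, although the labels state no pairing. Correlations between libraries with different numbers were not computed, and replicate 3 stood apart at both doses. A pairing and a shared deviation of replicate 3 thus cannot be told apart. UHRF1, DNMT1 and TET3 were higher in 3 of 3 pairs, and TET1, TET2, DNMT3A, DNMT3B and MBD2 were lower in 3 of 3. TDG went both ways. The share of all genes with 3 like pairs was not computed. With the replicate number as a block in the fit of all libraries the same 5 members were called (UHRF1 0.52, TET3 0.79, DNMT3A -0.61, TET1 -0.67 and TET2 -0.86). With the block and only the 6 libraries of these doses, a fit chosen after seeing the data, these 5 were called again and DNMT1 was called higher too (0.37, adjusted p 0.00439 by edgeR). Without the block 3 of the calls were lost when single libraries were left out. That of UHRF1 was lost without replicate 3 at 0.25 µM (0.43) and without replicate 1 or 2 at 0.5 µM (0.42 and 0.45). TET1 (-0.67, SE 0.22 and adjusted p 0.0288 by edgeR) was lost without replicate 2 at 0.25 µM (-0.48) and without replicate 1 or 3 at 0.5 µM (-0.68 and -0.48). TET2 (-0.88, SE 0.29 and adjusted p 0.0311 by edgeR) was lost without replicate 2 or 3 at 0.25 µM (-0.78 and -0.62) and without replicate 1 or 2 at 0.5 µM (-0.74 and -0.89). DNMT1 was called without replicate 3 at 0.5 µM (0.46).

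Between 0.5 and 1 µM 0 members were called in either direction by edgeR, as were 0% of all genes in each direction. Over all genes 372 had an unadjusted p under 0.05, and DESeq2 also called 0 genes. UHRF1, 1 of the 9 members, had libraries that did not overlap between these doses (0.34, 95% interval -0.02 to 0.69). How many of all genes had no overlap was not computed, so this carries no weight. From 0.15 to 1 µM, 5 members were lower and 1 was higher, against 23.1% and 21.5% of all genes. Of the genes averaging 10 CPM or more, 33.9% were called lower and 22.8% higher. DNMT3A was lower by a log2 fold change of -1.0 (SE 0.14 and adjusted p 8.68e-06 by edgeR), TET1 by -0.83 (SE 0.22 and adjusted p 0.00495), MBD2 by -0.73 (SE 0.13 and adjusted p 0.000136), UHRF1 by -0.57 (SE 0.17 and adjusted p 0.00997) and TDG by -0.46 (SE 0.18 and adjusted p 0.0427), and TET3 was higher by 0.80 (SE 0.16 and adjusted p 0.000458). DNMT1 (-0.14, 95% interval -0.44 to 0.16) and DNMT3B (-0.08, 95% interval -0.40 to 0.24) were not called. The TDG call was lost in 10 of 15 alternatives, among them without replicate 1 or 2 at 0.15 µM (-0.40 and -0.34) and without replicate 1, 2 or 3 at 1 µM (-0.45, -0.44 and -0.49). TET2 (-0.62, adjusted p 0.0982 by edgeR) was called without replicate 3 at 0.15 µM (-0.87).

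The scaling of the libraries shifted all fold changes against untreated cells. With library totals the median over all genes was 0.64, 0.85, 0.72 and 0.67 with increasing dose, and the members called were 1 higher and 1 lower, 1 and 4, 0 and 7, and 1 and 8. With TMM restricted to genes of 10 CPM or more the medians were 0.54, 0.73, 0.75 and 0.70 and the members called 1 higher and 4 lower, 1 and 6, 1 and 7, and 1 and 7. With the median ratio method (RLE) the medians were 0.23, 0.36, 0.42 and 0.38, and 6, 7, 8 and 8 members were called lower and 0 higher. DNMT3A at 0.25 µM changed its sign with library totals (0.43) and with the second set of TMM factors (0.33), where it was called higher. Values that were called in neither fit also changed sign, among them UHRF1 at 0.15 µM with library totals (0.14) and with the second set of TMM factors (0.04), and TET2 at 0.25 µM with the same scalings (0.28 and 0.16). UHRF1, DNMT1, TDG and MBD2 were lower at 0.25, 0.5 and 1 µM under each of the 4 scalings.

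**Figure D3:**
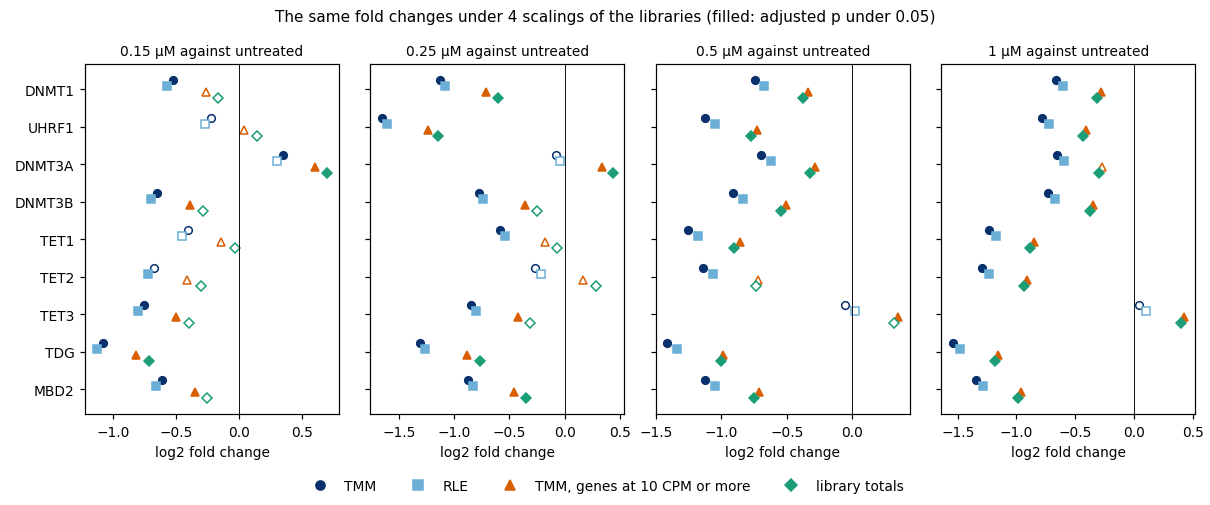
Log2 fold changes against untreated cells (horizontal axes) of the 9 genes under 4 scalings of the libraries (TMM, RLE, TMM restricted to genes of 10 CPM or more, library totals), filled where the adjusted p was under 0.05. The last 2 scalings move every gene to the right, DNMT3A at 0.25 µM from -0.08 to 0.33 and 0.43.

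Ratios of members within a library do not depend on the scaling, and 3 pairs were described, chosen after their values were seen. Counts were divided by the exon length of each gene, merged over all its annotated transcripts, so the height of a ratio rests on these lengths. The ratio of DNMT3A to DNMT3B was 0.168, 0.157 and 0.150 in untreated libraries, 0.265, 0.277 and 0.443 at 0.15 µM and 0.308, 0.240 and 0.227 at 0.25 µM. It was 0.192, 0.166 and 0.198 at 0.5 µM and 0.159, 0.167 and 0.175 at 1 µM. The libraries at 0.15 and 0.25 µM all lay above the untreated ones and those at 1 µM overlapped them, so DNMT3A was high relative to DNMT3B at the lower doses. The ratio of TET3 to TET1 was 2.36 ± 0.0699 untreated and, by rising concentration, 1.96 ± 0.534, 2.00 ± 0.336, 5.56 ± 1.07 and 5.71 ± 0.877 (SD, n = 3), with no overlap between the 2 highest doses and the other groups. The ratio of UHRF1 to DNMT1 was 0.672 ± 0.0977 untreated and 0.831 ± 0.0984, 0.466 ± 0.0635, 0.515 ± 0.0750 and 0.625 ± 0.0830 in the same order of doses. Its libraries at 0.25 µM lay below all those of untreated cells and of 0.15 µM, so UHRF1 was low relative to DNMT1 at that dose.

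**Figure D4:**
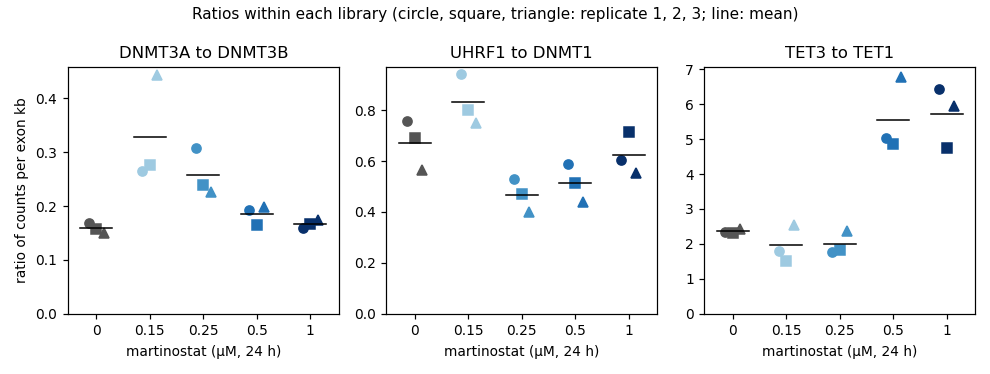
Ratios of counts per kilobase of exon (vertical axes, from 0) of DNMT3A to DNMT3B, UHRF1 to DNMT1 and TET3 to TET1 in each library, by martinostat concentration (0 for untreated cells), with the mean as a line. TET3 to TET1 lies between 4.73 and 6.79 at 0.5 and 1 µM and at 2.55 or lower in the other libraries.

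Compared per kilobase of exon, the order of the members in untreated cells was DNMT3B (34.2 CPM per kb), DNMT1 (28.3), TDG (25.4), UHRF1 (19.0), MBD2 (16.1), TET3 (11.4), DNMT3A (5.42), TET1 (4.86) and TET2 (2.34). The length merges the exons of all annotated transcripts, 15.4 kb for DNMT1 and 6.88 kb for DNMT3B. Without this division DNMT1 stood above DNMT3B in untreated cells (435 against 235 CPM), so the order rests in part on the divisor. At 1 µM DNMT3B (20.7 CPM per kb) and DNMT1 (17.9) still led and TET2 (0.958) was last, and TET3 (11.8) now stood next, ahead of UHRF1 (11.0) and TDG (8.73). TET3 was therefore the most abundant TET transcript in untreated cells and at each dose on this scale. The exons of the 9 genes shared no base with a gene of the opposite strand, and with genes of the same strand at most 3.44% (TDG).

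The genes around the members were counted by list, at 1 µM, where 27.5% of all genes were called lower and 38.8% higher, and 48.4% of those averaging 10 CPM or more were called lower and 26.5% higher. Of 9 partners and methyl donor enzymes 6 were lower and 1 higher, with a median log2 fold change of -1.10. DNMT3L, a catalytically inactive relative that stimulates the de novo enzymes, went from 0.160 ± 0.139 to 3.46 ± 1.06 CPM (log2 fold change 4.41, SE 0.53), the single list gene of this group called higher. It had 12 counts in the 3 untreated libraries together and 297 at 1 µM. DNMT3L thus passed the filter on low counts only through treated libraries, so its call carries no weight. CDCA7, a partner of the remodeler HELLS, went from 108 ± 9.18 to 16.3 ± 1.18 CPM (-2.72, SE 0.21) and USP7, a deubiquitinase that binds DNMT1 and UHRF1, from 503 ± 31.4 to 138 ± 21.4 CPM (-1.87, SE 0.15). Of the NuRD subunits other than MBD2, 7 of 9 were lower and CHD4 was higher (0.42, SE 0.16), with CHD3 at -2.73 (SE 0.18) and MTA2 at -2.13 (SE 0.14). Of 9 other methyl-CpG readers 5 were lower and MBD5 was higher (0.46), with ZBTB38 at -1.27 and MBD3 at -1.15 as the lowest.

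Among 18 genes of demethylation repair, TET partners and cofactor enzymes 4 were higher and 7 lower at 1 µM, with a median of -0.21, against 38.8% and 27.5% of all genes. GADD45B, a stress-induced factor linked to demethylation, went from 0.994 ± 0.367 to 30.0 ± 2.08 CPM (log2 fold change 4.91, SE 0.22), and CXXC4, which binds TET2, from 0.182 ± 0.116 to 4.02 ± 0.603 CPM (4.42, SE 0.41). CXXC4 had 14 counts in the 3 untreated libraries together and 345 at 1 µM, and a further gene of the 4 had 29 and 354. Both passed the filter on low counts only through treated libraries, so these calls carry no weight. UNG, a uracil glycosylase, fell from 127 ± 6.03 to 11.9 ± 0.559 CPM (-3.42, SE 0.21), and NEIL3 from 21.7 ± 2.02 to 4.69 ± 0.417 CPM (-2.21, SE 0.28). Of 10 germline genes that are commonly silenced by methylation, 3 had enough counts to be tested, and 2 of these were called higher at 1 µM, against 38.8% of all genes. MAEL and STK31, the called ones, passed the filter on low counts only through treated libraries, so their calls carry no weight. MAEL had 1 count in the 3 untreated libraries together and 77 at 1 µM, a ratio of 68.1 with a 95% counting interval of 11.9 to 2720, and STK31 had 15 and 118 counts. SYCP3, a protein of the meiotic chromosome axis, had 135 and 120 counts and was not called (log2 fold change -0.35, adjusted p 0.451 by edgeR), and DAZL, which was not tested, had 8 and 0. The interval covers counting error only.

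DNA replication genes are given because DNMT1 and UHRF1 act on newly copied DNA. Of 12, 11 were lower at 0.15 µM, 12 at 0.25 µM and 11 at 0.5 and at 1 µM, against 19.4%, 24.8%, 27.6% and 27.5% of all genes and 40.2%, 48.7%, 48.7% and 48.4% of those averaging 10 CPM or more. The medians were -1.25, -2.33, -2.18 and -2.01, below the median of the 9 members at each dose. Their summed level was 5044 to 5487 CPM in untreated libraries, 2383 to 2748 at 0.15 µM, 1041 to 1378 at 0.25 µM, 895 to 1685 at 0.5 µM and 1443 to 1594 at 1 µM. TYMS, the thymidylate synthase, had the lowest value at 1 µM (-4.87, SE 0.20), followed by MCM6 (-2.42, SE 0.16). The part of these genes in the UHRF1 and DNMT1 results was not tested.

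**Figure D5:**
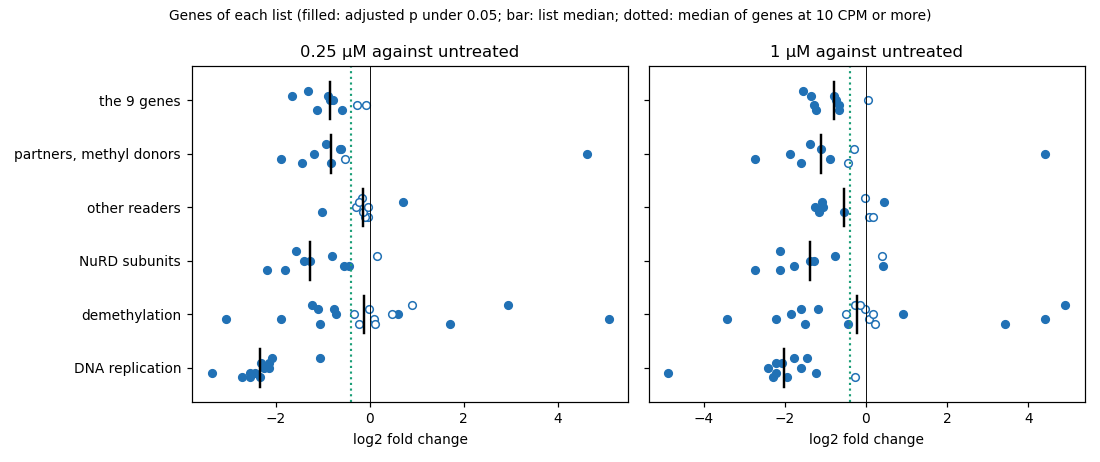
Log2 fold changes at 0.25 and 1 µM against untreated cells (horizontal axes) of the genes in each list (points, filled where the adjusted p was under 0.05, offset vertically for sight), with the list median as a bar and the median of all genes averaging 10 CPM or more as a dotted line. The 12 replication genes have medians of -2.33 and -2.01 and the 9 members of -0.84 and -0.79.

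For each member the 2 most similar genes were found among 9616 protein-coding genes by Pearson's r of log2 CPM over the 15 libraries, which share their 5 groups and their scaling. These were MSH6 and BRPF1 for DNMT1, PFKFB4 and WDR62 for UHRF1, P3H3 and SLC39A11 for DNMT3A, DDIAS and ECT2 for DNMT3B, ADNP and CNOT6L for TET1, FCHO2 and SP3 for TET2, PIK3R4 and DAAM1 for TET3, ATXN7L3B and PAK2 for MBD2, and ZCCHC4 and CPSF6 for TDG. The values of r ran from 0.956 (CNOT6L) to 0.989 (ZCCHC4). PIK3R4, the gene most like TET3, had a mean of 64.1 CPM untreated and of 72.0 CPM at 1 µM, and MSH6, the one most like DNMT1, of 282 and 164 CPM.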

How the data were processed

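Per the labels, poly(A) RNA was converted to libraries with a strand-keeping kit. According to the study's methods and processing notes, the authors trimmed reads with Trim Galore 0.6.10, aligned them to hg38 with HISAT2 2.2.1 and SAMtools 1.21 and counted them per GENCODE gene with featureCounts 1.5.3. The deposited values used here are these raw counts, not normalized. The strand setting was not given in the sources used here. The deposited FPKM tables were not used.

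The analysis used edgeR 4.0.16 under R 4.3.3. Genes were filtered with filterByExpr, libraries were scaled by TMM, and all 15 libraries entered a single fit with group as the only term, tested with robust quasi-likelihood F tests. The scripts were tested on simulated data. Standard errors were derived from the F statistic. Gene positions and exon lengths came from GENCODE 44 on hg38, a later release than the one named in the methods, and DNMT3A and DNMT3B have a newer version number there. Figures were drawn with matplotlib 3.10.9.

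The members and lists were chosen with earlier results of these data known. From each list the text names at most the 2 highest and 2 lowest called genes at 1 µM. Alternatives were other scalings (RLE, library totals, TMM restricted to genes of 10 CPM or more), other filters, DESeq2 1.42.0, fits of 6 libraries only, a replicate block, and each library left out. Leaving out replicate 3 at both 0.25 and 0.5 µM was chosen after seeing the data.

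Whether replicate numbers pair the libraries was checked by subtracting the group mean of log2 CPM from each library and correlating what remained, over genes, between libraries that carry the same number. Of 30 pairs, 3 had a correlation over 0.1 (range -0.058 to 0.542), and these were the 3 pairs of 0.25 and 0.5 µM. The numbers were therefore also read as pairs in that comparison and in no other, although the labels state no pairing. Correlations between libraries with different numbers were not computed, so this check cannot tell a pairing from replicate 3 standing apart at both doses. A block fit of only these 6 libraries was added after seeing the data.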

Additional observations from a re-analysis of the deposited data

Results flagged for a closer look

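DNMT3A was above untreated cells at 0.15 µM (0.35) and below them at 1 µM (-0.65), and the doses themselves differed by a log2 fold change of -1.0 (adjusted p 8.68e-06 by edgeR, lower in 3 of 3 libraries). The higher call at 0.15 µM was the fragile one of these. TET3 was below untreated cells at 0.15 µM (-0.76) and not distinguishable from them at 1 µM (0.04), with a difference between these doses of 0.80 (adjusted p 0.000458 by edgeR, higher in 3 of 3 libraries). In TET3 the opposite sign at 1 µM was not called.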

How the results depend on the processing

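Of 1089 recomputed fold changes of members, 961 kept direction and side of the threshold, 68 lost a call, 18 gained one and 42 changed sign. Of the latter 39 were called in neither fit, among them UHRF1 at 0.15 µM, TET2 at 0.25 µM (0.02 when 10 counts were asked of every library) and DNMT3A at 0.25 µM (0.20 in that fit). The other 3 were called in the alternative: DNMT3A at 0.25 µM with library totals (0.43) and TMM restricted to genes of 10 CPM or more (0.33), and TET3 at 0.5 µM with the latter (0.35). The count of members called at 0.15 µM was 2 with library totals, against 6, and from 0.25 to 0.5 µM it was 2 with only the 6 libraries compared, against 5. The cause was not tested. Without single libraries, the count ran from 1 to 3 between 0.15 and 0.25 µM and from 2 to 5 between 0.25 and 0.5 µM. Same-numbered libraries deviated together at 0.25 and 0.5 µM alone, and the block fit of those 6 libraries called 6 members. With the replicate block in all libraries 5, 7, 8 and 8 members were called against untreated cells with increasing dose, and 2, 5, 0 and 6 from 0.15 to 0.25, 0.25 to 0.5, 0.5 to 1 and 0.15 to 1 µM. Without replicate 3 at both 0.25 and 0.5 µM, an alternative chosen after seeing the data, the counts in the same order were 6, 7, 8 and 8 and 2, 4, 0 and 6. The calls most often lost were DNMT3A between 0.15 and 0.25 µM (14 of 15), TDG between 0.15 and 1 µM (10 of 15) and DNMT3A at 0.15 µM (9 of 15). With 3 libraries a group and no spike-in, total RNA per cell is unknown, and directions for small changes rest on the scaling.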
